A study of Mus musculus with 6 samples.

Results

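The circRNAs described here are the 521 exonic circRNAs of the mouse lacrimal gland that the deposited table places in no earlier catalogue. They were chosen by annotation alone, as rows whose class is exonic and whose source is neither circBase, a public catalogue of circRNAs, nor an earlier published list, and they are called unlisted below. They made up 25.7% of the 2029 exonic circRNAs and 20.5% of the 2541 circRNAs of all classes. The other 1508 exonic circRNAs, 447 of circBase and 1061 of earlier lists, are called listed and serve as the comparison.

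RNA of whole lacrimal glands was sequenced after removal of ribosomal RNA in 3 libraries of wild-type (AQP5+/+) mice and 3 libraries of mice lacking aquaporin 5 (AQP5-/-), all of strain C57BL/6 and 6 months old, with no treatment named. The knockout was made with CRISPR/Cas9 in fertilised eggs and is not restricted to a tissue. Aquaporin 5 is the water channel of the apical membrane of acinar cells. The profiles are described as those of 3 mice per genotype, so each library is taken as 1 mouse, and the sex of these mice is not named. The paper and the labels name different kits for ribosomal RNA removal and library preparation.

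A circRNA forms when the spliceosome joins a 5′ splice site (donor) to a 3′ splice site (acceptor) that lies upstream of it in the same transcript. The closed loop has no free ends and is resistant to exonucleases, so circRNAs can outlast the linear RNA of their host gene. In exonic circRNAs both ends of the loop lie at annotated exon borders. Only reads that cross this back-splice junction tell the loop from the linear transcript, and the counts below are such junction reads.

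The labels were checked on the mRNA. Aqp5 mRNA was at 153.8, 89.0 and 141.8 FPKM (fragments scaled to transcript length and to library size) in AQP5+/+ replicates 1, 2 and 3 and at 0.378, 0.177 and 0.170 in the AQP5-/- libraries. Of the markers of secretory acinar cells, 9 besides Aqp5 were measured, and their summed level ran from 717 to 1322 FPKM in AQP5+/+ and from 594 to 771 in AQP5-/- libraries. Lacrimal products such as Pip, a prolactin-inducible tear protein (22150 to 29343 FPKM), were abundant in every library. The summed level of 4 macrophage markers did not overlap between the genotypes, at 42.0 to 82.5 FPKM in AQP5+/+ and 84.5 to 183.9 in AQP5-/- libraries. Lyz2 was the largest part of that sum, at 31.6 to 69.1 FPKM against 70.2 to 157.4. Singly, Csf1r and Mrc1 did not overlap either, but Cd68 did (3.82 to 7.94 against 6.10 to 14.4). AQP5+/+ replicate 2 stood apart in 2 ways. Its 5 skeletal muscle markers summed to 52.2 FPKM against at most 1.99 elsewhere. Its 4 Y-linked transcripts (Ddx3y, Uty, Kdm5d and Eif2s3y) summed to 33.0 FPKM, where AQP5+/+ replicates 1 and 3 had 0.320 and 0.185 and the AQP5-/- libraries 49.7 to 58.0. Genotype and the presence of Y-linked transcripts can therefore be told apart only through AQP5+/+ replicate 2, and its value is given beside the genotype results. In bulk tissue, fewer cells of a type and less RNA per cell cannot be told apart. The libraries held 2032 to 2953 junction reads of all circRNAs.

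The sequence at the ends of the loop was read where an annotated promoter window covered it (RefSeq, GRCm38.p6, the build the files call mm10). Windows covered 5 ends of unlisted circRNAs, and these are shown because the splice dinucleotide next to the loop is a feature of exon borders used by the spliceosome. Lower case marks up to 40 bases outside the loop and capitals 20 bases inside it, all on the host strand.
Rbm4 acceptor, chr19:4793990-4794049 (-): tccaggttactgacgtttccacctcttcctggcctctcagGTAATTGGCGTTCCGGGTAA
Mgat4a acceptor, chr1:37536385-37536444 (-): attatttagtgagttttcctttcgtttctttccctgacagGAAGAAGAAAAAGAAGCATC
Frem1 acceptor, chr4:83021083-83021142 (-): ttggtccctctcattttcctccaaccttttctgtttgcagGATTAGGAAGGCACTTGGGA
Dync2h1 acceptor, chr9:7177211-7177270 (-): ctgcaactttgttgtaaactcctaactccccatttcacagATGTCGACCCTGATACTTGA
Eps15 donor, chr4:109343337-109343396 (+): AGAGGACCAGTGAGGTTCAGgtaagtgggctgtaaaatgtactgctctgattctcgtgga
All 4 acceptors had AG just outside the loop, behind a run rich in C and T, and the donor had GT, the dinucleotides of the major spliceosome. Among listed exonic circRNAs the windows covered 17 acceptors and 1 donor, with AG at 17 and GT at 1. Both ends of exonic circRNAs lie at annotated exon borders, so these dinucleotides are largely given by the class. They describe the ends and do not test the loops. In Rbm4, Mgat4a and Frem1 the base at which the loop begins is also the first base of an annotated RefSeq transcript, so the exon that carries the acceptor in the loop is a first exon in that transcript. No other ends were read here.

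Most unlisted circRNAs had reads in a lone library. Of the 521, 448 (86.0%) had reads in 1 library, 36 in 2 libraries, 20 in 3, 8 in 4, 2 in 5 and 7 in all 6. At least 3 libraries were reached by 37 (7.1%), against 479 (31.8%) of the listed exonic circRNAs. The median was 2 junction reads in all, against 4 for listed ones, and 295 (56.6%) had exactly 2. The unlisted circRNAs held 1871 of the 12632 exonic junction reads (14.8%), and 15 of them had 10 reads or more. The 10 with the most reads held 413 reads, or 22.1% of the unlisted total.

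**Figure D1:**
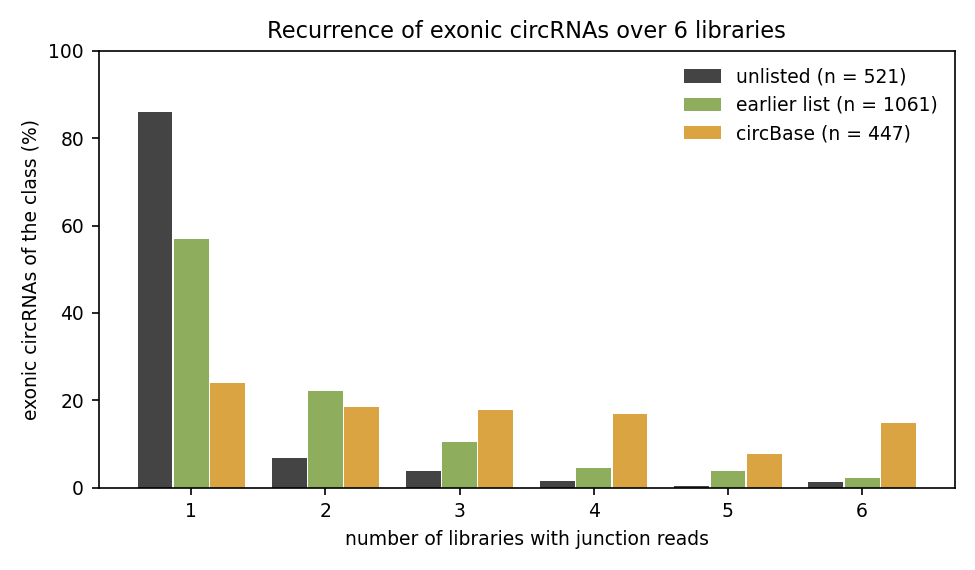
Share of exonic circRNAs (y axis, %) by the number of libraries in which they had junction reads (x axis), for unlisted circRNAs, those of an earlier published list and those of circBase. Unlisted circRNAs stand at 86.0% in 1 library, earlier-list circRNAs at 57.0% and circBase circRNAs at 23.9%.

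The most abundant unlisted circRNA came from Dmbt1, whose product is a large glycoprotein of mucosal fluids that binds microbes and is built from repeated scavenger receptor domains. This loop of 417 nt (chr7:131065064-131071219, plus strand) had 25, 17 and 39 reads in AQP5+/+ replicates 1, 2 and 3 and 10, 24 and 8 reads in AQP5-/- replicates 1, 2 and 3. AQP5-/- replicate 2 lay among the AQP5+/+ libraries, so the genotypes overlapped. Dmbt1 gave 3 more unlisted circRNAs and no listed one. Their predicted lengths were 834, 1248 and 1665 nt, which are 2, 3 and 4 times the 417 nt of the first to within 3 nt. The 1248 nt loop had 3, 0 and 10 reads against 3, 0 and 1, and the 834 and 1665 nt loops had 4 reads each. The 4 loops shared borders: the 1248 and 1665 nt loops began at the same base (131049910), and the 834 and 1665 nt loops ended at the same base (131081212). Together they held 148 reads, at 29, 17 and 52 in AQP5+/+ and 14, 27 and 9 in AQP5-/- libraries. Repeated exons can divide reads between near-identical copies, so the place of each Dmbt1 junction is uncertain.

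Rbm4, an RNA-binding regulator of alternative splicing, gave the second most abundant loop (617 nt, chr19:4792398-4794009, minus strand), whose acceptor is printed above. It had 15, 14 and 10 reads across AQP5+/+ and 13, 11 and 10 across AQP5-/- libraries. The libraries were close to one another and the genotypes overlapped. A circBase circRNA of the same gene (1299 nt, 3, 2 and 0 reads against 3, 2 and 0) began at the same acceptor and ran to a later donor, with 10 reads in all against 73 for the unlisted loop.

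Spt1, a secreted protein first known from saliva, gave a loop of 270 nt whose genomic span equals its length, as for a circle of 1 exon (chr15:103897323-103897592, minus strand). Its reads were 11, 2 and 16 in AQP5+/+ and 6, 5 and 3 in AQP5-/- libraries. AQP5+/+ replicate 2 had the fewest of all 6. A second Spt1 loop of 309 nt shared 1 of its borders and had 7, 1 and 0 reads against 0, 0 and 2.

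Setd3, an actin histidine methyltransferase, gave a loop of 682 nt with 12, 7 and 7 reads across AQP5+/+ and 5, 4 and 5 across AQP5-/- libraries. These values did not overlap between the genotypes, although the difference missed the threshold used below. Etv1, an ETS family transcription factor, gave a loop of 567 nt with 2, 6 and 2 reads against 2, 2 and 6. Zhx2, a zinc finger and homeobox repressor, gave a loop of 2720 nt, again with a span equal to its length, with 1, 2 and 1 reads against 3, 2 and 5. These 3 loops, those of Dmbt1 (417 nt), Rbm4 and Spt1 (270 nt), and 1 of Gm1553 described below were the 7 found in all 6 libraries. Gm12873, which RefSeq lists as a transcribed pseudogene, completed the 10 most abundant with 10, 4 and 1 reads against 0, 0 and 4, and reads of a pseudogene cannot be told with certainty from those of a related gene.

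**Figure D2:**
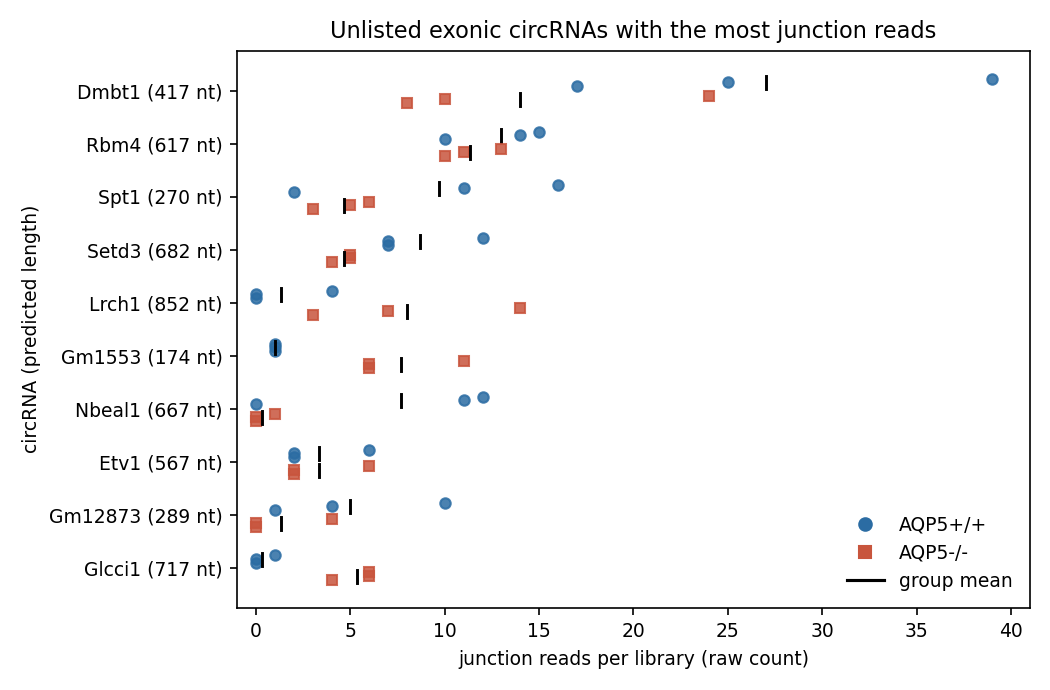
Junction reads per library (x axis, raw count) of the 10 unlisted exonic circRNAs with the most reads. Each point is 1 library, circles for AQP5+/+ and squares for AQP5-/-, and vertical bars are group means. The Dmbt1 loop reaches 39 reads, and the Gm1553 loop is at 1 read in each AQP5+/+ library and at 6 to 11 in the AQP5-/- libraries.

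Predicted lengths, which the deposited table gives as the sum of the exons between the ends, had a median of 649 nt (quartiles 364 and 1063 nt) and extremes of 96 and 7206 nt. Loops over 1000 nt numbered 142 (27.3%) and loops under 200 nt numbered 24. The longest came from Jmjd1c, a member of the histone demethylase family (7206 nt, 3 reads, all in AQP5-/- replicate 3), and Dync2h1, the heavy chain of the ciliary dynein (6750 nt, 2 reads, all in AQP5+/+ replicate 2). The shortest came from the transcriptional repressor Zbtb20 (96 nt, 3 reads) and the RNA-binding protein gene Rbm33 (126 nt, 7 reads), and the reads of both were in AQP5-/- replicate 2 alone. The genomic span between the ends had a median of 10029 bases and a range of 162 to 99748. For 19 loops (3.65%) the span equalled the predicted length, against 97 (6.43%) of the listed ones.

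Unlisted and listed circRNAs were set side by side within each library, so that depth was shared, and 5 measures were compared over the 6 libraries with two-sided exact sign permutation tests, adjusted by Benjamini-Hochberg over the 5. Circles found in several libraries enter more than 1 pair, so the pairs are not fully independent, and 6 pairs cannot give a p below 0.031. The median predicted length of the unlisted circRNAs was higher in 6 of 6 libraries (630 ± 43.6 against 583 ± 22.6 nt, SD, n = 6, exact p = 0.031, adjusted p = 0.0391). The mean length did not separate them in the same way, with a difference of 2.32 nt (exact p = 0.969). Reads per detected circRNA were lower in 6 of 6 libraries, at a mean of 2.82 ± 0.158 against 3.24 ± 0.222 (SD, n = 6, exact p = 0.031, adjusted p = 0.0391), while the medians differed by -0.167 reads (exact p = 1). The share found in that library alone was 67.1% ± 7.64 against 21.4% ± 3.07 (SD, n = 6, higher in 6 of 6, exact p = 0.031, adjusted p = 0.0391). Reads and recurrence are part of what puts a circRNA in a catalogue. Reads per circRNA and this share therefore only describe how the class was drawn.

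A host gene of an unlisted circRNA was less often the source of a second circRNA in the same table. Within libraries 58.5% ± 5.32 of the unlisted circRNAs had another circRNA of their host, against 66.2% ± 0.776 of the listed ones (SD, n = 6, lower in 6 of 6, exact p = 0.031, adjusted p = 0.0391). Over the whole table the shares were 55.5% (289 circRNAs) and 61.0% (920). An end was shared with a listed circRNA by 73 unlisted ones (14.0%), 39 at the lower coordinate and 39 at the higher, and both ends were known from listed circRNAs in 5, in another combination. Of the listed exonic circRNAs 527 (34.9%) shared an end with another listed one. A further sharing was between unlisted circRNAs, of which 61 had an end in common with another, and 122 shared an end with any exonic circRNA.

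The 521 circRNAs came from 438 host genes. Of these, 379 gave 1 unlisted circRNA and 59 gave more. Luc7l2, a splicing factor that associates with the U1 snRNP, gave 5 and no listed one. Its loops of 845, 653 and 623 nt began at the same acceptor (chr6:38585041, plus strand), and those of 981 and 265 nt at another one further upstream (38568847). The 845 and 981 nt loops also shared their donor (38603468). Their reads summed to 7, 6 and 2 in AQP5+/+ and 6, 1 and 3 in AQP5-/- libraries, and the libraries overlapped. The loops of 845, 653 and 623 nt were found in 3 to 4 libraries each, and the other 2 in 1 library.

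Another 7 hosts gave 4 unlisted circRNAs each, Dmbt1 among them. Grhl2, a transcription factor of epithelial identity, gave loops of 658 nt (2, 0 and 2 reads against 0, 2 and 0) and 983 nt (1, 0 and 2 against 2, 0 and 0) from 1 acceptor, and 2 more with 2 reads each. Esrp1, an epithelial splicing regulator, gave loops of 556, 858, 889 and 1327 nt with 2 to 4 reads, each in a single library. The 4 loops of Kif1b, a kinesin motor, and the 4 of Nbas, which acts in Golgi-to-endoplasmic reticulum transport, also had 2 to 4 reads in 1 library each. Those of Ankrd12, an ankyrin repeat protein, and of Mctp2, a membrane protein with C2 domains, had 2 to 6 reads. Of the 438 hosts, 166 also gave a listed exonic circRNA, and these carried 211 of the unlisted ones.

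Unlisted circRNAs lay on 20 chromosomes, most often on chromosome 4 (51). Their share of the exonic circRNAs of a chromosome was lowest on chromosome 18 (14.1%) and highest on the X (17 of 38, 44.7%). On the X, 5 of the 17 came from the odorant-binding lipocalins Obp1a and Obp1b and the neighbouring Gm5938. Without these the X share was 36.4%, no longer the highest, as chromosome 15 stood at 36.5%.

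Some hosts of unlisted circRNAs were strongly expressed, although most of the top genes of the gland were not hosts. The 431 hosts with an entry in the mRNA table had a median level of 11.6 FPKM (quartiles 4.94 and 24.7), and the 995 hosts of listed circRNAs 10.2 FPKM (5.41 and 18.9). At 100 FPKM or more stood 20 (4.64%) of the former and 7 (0.704%) of the latter, and among the 100 genes of highest mean FPKM were 8 hosts of unlisted and 0 hosts of listed exonic circRNAs. Those 8 hosts gave 12 circRNAs with 114 reads, and between 3 and 6 of the 12 were detected in each library. Among the 8 were Spt1, Gm1553, Gm5938 and Obp1b, whose FPKM were exactly 0 in some libraries, as described below. Gm1553 ranked there through AQP5+/+ replicate 3 alone. Of the 114 reads, Spt1 held 53 and the 174 nt loop of Gm1553 held 26. Within libraries the median host level was 15.4 ± 3.14 against 13.0 ± 1.82 FPKM (SD, n = 6, higher in 5 of 6, exact p = 0.0625, adjusted p = 0.0625), which missed the threshold. Without hosts listed at 0 in the library the difference was 3.09 FPKM (exact p = 0.031, not adjusted). This setting was not planned, so it does not replace the planned test.

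**Figure D3:**
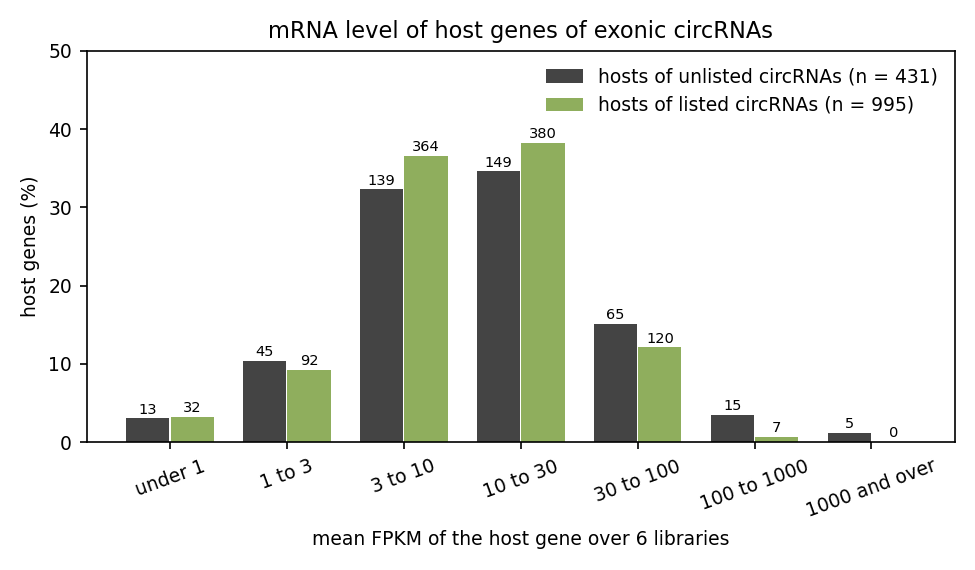
Host genes of unlisted and of listed exonic circRNAs by mean FPKM over 6 libraries (x axis), as a share of the host genes of the class (y axis, %) with the number of genes above each bar. At 100 FPKM and over there are 15 and 5 hosts of unlisted circRNAs in the last pair of classes, against 7 and 0 hosts of listed ones. The last class includes Spt1, Gm1553, Gm5938 and Obp1b, whose FPKM were exactly 0 in some libraries.

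Genes for secreted lacrimal products were hosts of unlisted exonic circRNAs but of no listed ones. Of the 39 genes of that list, 5 (Dmbt1, Spt1, Obp1a, Obp1b and Ltf) hosted 10 unlisted exonic circRNAs with 231 reads, and 0 hosted a listed one. Obp1a gave a loop of 325 nt (chrX:78088321-78090844, minus strand) with 4, 1 and 3 reads across AQP5+/+ and 1, 3 and 0 across AQP5-/- libraries, and 1 of 210 nt with 2, 4 and 0 against 0, 3 and 0. Obp1b gave a loop of 244 nt with 5, 0 and 2 reads against 0, 0 and 0. Gm5938, beside them on the X, gave a loop of the same predicted length as the Obp1a one (325 nt, 2, 0 and 0 reads against 1, 0 and 3). Ltf, the iron-binding tear protein lactoferrin, had 2 reads in AQP5+/+ replicate 3. These genes also gave non-exonic circRNAs. Obp1a had 13 circRNAs of all classes and Gm5938 had 9, of which 2 each were unlisted exonic ones and the others non-exonic. A non-exonic one of Gm5938 had 45 reads, with ends 60447 bases apart. Being hosts was therefore not particular to the unlisted exonic class for these genes. The Obp1a, Obp1b and Gm5938 reads are uncertain where the copies are alike. The FPKM of such genes also held gaps: 4 hosts (Spt1, Gm1553, Gm5938 and Obp1b) were listed at exactly 0 in a library and at 10 FPKM or more in another. Spt1 mRNA was listed at 0 in all 3 AQP5+/+ libraries and at 72882 to 88894 FPKM in AQP5-/- libraries, while its 270 nt loop had 11, 2 and 16 reads in the former. Obp1a was listed at 0 in all 6. In 21 pairs of circRNA and library the circle had reads where its host was listed at 0. No fold from these zeros is printed. The zeros did enter the mRNA comparison below, and the count of Spt1 as risen rests on them.

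Relative to their host mRNA, abundant loops with reads in all 6 libraries differed. Summed over the libraries the Rbm4 loop had 3.67 junction reads per mean FPKM of its host, the Zhx2 loop 1.73, the Setd3 loop 1.06, the Dmbt1 loop of 417 nt 0.809 and the Etv1 loop of 567 nt 0.425. The order rests on few reads and on FPKM that scale with length, and is a description.

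Unlisted circRNAs had 438 hosts in all and listed ones 1014, and the other lists held fewer hosts of the former than of the latter, with 1 exception. Of 43 chromatin and transcription genes, 9 hosted 10 unlisted circRNAs with 25 reads and 27 hosted 55 listed ones with 498 reads. Examples are Med13, a subunit of the Mediator kinase module (2115 nt, 4 reads), and the chromatin remodeller Smarca2 (2952 nt, 3 reads), each in AQP5-/- replicate 3 alone. Of 42 membrane traffic genes, 9 hosted 11 unlisted circRNAs with 51 reads and 21 hosted 36 listed ones with 308 reads. Myo5c, a myosin of exocrine secretory granules, gave a loop of 241 nt with 2, 0 and 3 reads against 1, 0 and 1, and Copb1, a coatomer subunit, gave 1 of 231 nt with 4 reads in AQP5-/- replicate 3. Of 26 ubiquitin pathway genes 6 and 11 were hosts, with Ubr3, a ubiquitin ligase, at 4 reads for its loop of 360 nt. Among 34 genes of ion and water transport, Ano1, the calcium-activated chloride channel of secretory epithelia, gave a loop of 150 nt with 2, 1 and 2 reads against 0, 3 and 0, and P2rx7, an ATP-gated cation channel, gave 1 of 602 nt with 2 reads. The exception was the list of 39 genes of circRNA biogenesis and decay, with 4 hosts of 7 unlisted circRNAs (Esrp1, the helicase Dhx9, and the spliceosome components Sf3b1 and Snrnp70) and 3 hosts of 3 listed ones. Of the 36 tested mRNAs of this last list, 0 rose and 0 fell in AQP5-/- libraries by the threshold used below. Of 22 tested mRNAs of secreted products 4 rose (Wfdc12, Mup4, Lyz2 and Spt1 with its zeros) and 1 fell (Dmbt1), where 1.16% of all tested genes rose and 0.883% fell. AQP5+/+ replicate 2 stood with or toward the AQP5-/- libraries for Mup4 (1981, 19022 and 1489 FPKM against 19703, 20079 and 19906) and Wfdc12 (128, 947 and 106 against 1885, 1990 and 1994). The same held for Dmbt1 (232, 114 and 271 against 85.1, 132.7 and 76.2). Lyz2, which is also 1 of the 4 macrophage markers above, was at 31.6, 43.3 and 69.1 FPKM against 70.2, 114.6 and 157.4. Of 31 transport mRNAs 0 rose and 2 fell, Aqp5 and the volume-regulated channel subunit Lrrc8d. Lrrc8d was at 16.7, 5.04 and 17.9 FPKM against 3.86, 6.31 and 4.51, with AQP5+/+ replicate 2 inside the AQP5-/- range. Of 42 tested chromatin and transcription mRNAs, 26 ubiquitin pathway mRNAs and 40 membrane traffic mRNAs, 0 passed in either direction. The lists were written with earlier results of these data known.

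The share of unlisted circRNAs was compared between the genotypes. Of the exonic circRNAs detected, 109 of 801, 90 of 622 and 109 of 654 were unlisted in AQP5+/+ replicates 1, 2 and 3, and 123 of 638, 107 of 537 and 126 of 736 in AQP5-/- replicates 1, 2 and 3. The shares were 13.6%, 14.5% and 16.7% against 19.3%, 19.9% and 17.1%, with no overlap. The exact (Clopper-Pearson) 95% intervals of AQP5+/+ replicates 2 (11.8% to 17.5%) and 3 (13.9% to 19.7%) overlapped those of every AQP5-/- library. That of AQP5+/+ replicate 1 (11.3% to 16.2%) overlapped AQP5-/- replicate 3 (from 14.5% up). It lay just below AQP5-/- replicates 1 (from 16.3% up) and 2 (from 16.6% up). These intervals cover counting error only. The means were 14.9% ± 1.58 and 18.8% ± 1.47 (SD, n = 3 each), a difference of 3.86 percentage points (two-sided exact permutation p = 0.1, the smallest that 3 against 3 can give). By junction reads the shares were 13.6% ± 1.97 and 16.3% ± 1.04 (SD, n = 3 each, exact permutation p = 0.2) and overlapped. AQP5+/+ replicate 2, the wild-type library with Y-linked transcripts, was at 14.5% and so below all AQP5-/- libraries. Circles seen in AQP5+/+ libraries alone numbered 199, in AQP5-/- libraries alone 266 and in both 56, and for the listed exonic circRNAs the numbers were 438, 413 and 657. Summed macrophage markers also stood higher in AQP5-/- libraries (above), and their part in this share was not tested.

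**Figure D4:**
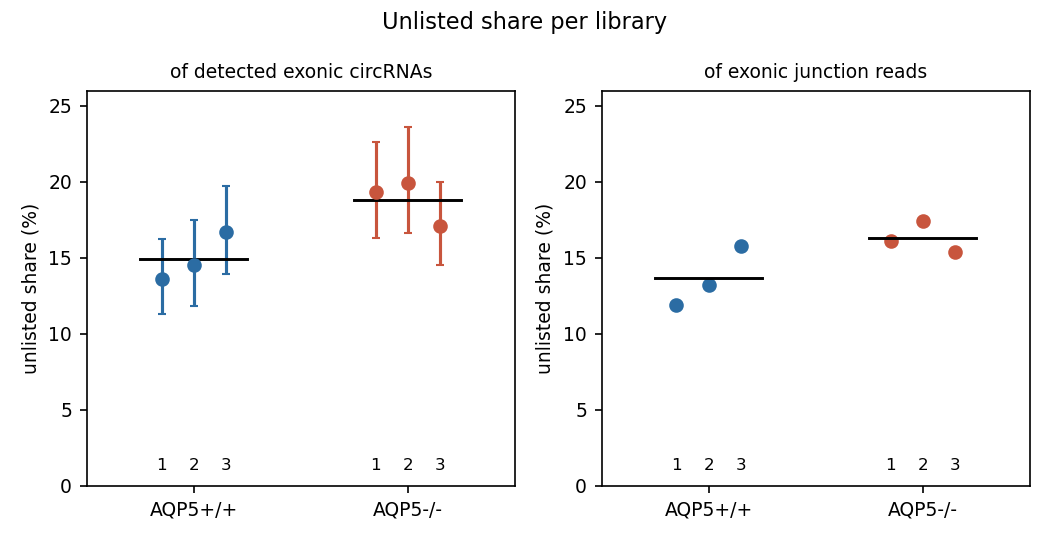
Unlisted share (y axis, %) of the detected exonic circRNAs (left) and of the exonic junction reads (right) in each library, with group means as lines and exact 95% binomial intervals on the left, which cover counting error only. Numbers above the x axis are replicate numbers. The AQP5+/+ shares on the left lie at 13.6% to 16.7% and the AQP5-/- shares at 17.1% to 19.9%.

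Single circles were then tested for a difference between AQP5-/- and AQP5+/+ libraries, in 1 edgeR quasi-likelihood fit of the 552 circRNAs of every class with reads in 3 or more libraries. The threshold was the study's own, a change of 2-fold or more with p under 0.05 before adjustment. Of the unlisted circRNAs 37 could be tested, which held 615 of their 1871 reads (32.9%), and 484 were too rare. Past the threshold were 5 of the 37 (13.5%), with the background at 9.06% of all 552 and 8.74% of those outside the group, so the share was near that of other circRNAs. In AQP5-/- libraries 3 were higher (background 2.36%) and 2 lower (background 6.7%). None had a Benjamini-Hochberg adjusted p under 0.05 with edgeR (0 of 37, with 5 at an unadjusted p under 0.05) or DESeq2 (0 of 37), and the 5 stood at 0.334 to 0.442. The genotypes did not overlap in 4 of the 37 (Setd3, Gm1553, Glcci1 and Cacna1b), against 9.96% of all tested. Of these, Cacna1b entered the test through AQP5+/+ libraries alone. The difference in macrophage markers given above runs along the same groups, and its part in these calls was not tested. The median log2 fold change was -0.46 over the 37 and -0.13 over all 552. For the loops called higher in AQP5-/- libraries, described next, the paper also reports qRT-PCR. Their coordinates are among those for which the paper lists qRT-PCR primers. According to the paper, the qRT-PCR levels of its raised circRNAs matched its sequencing. Those circRNAs were the ones raised in the same sequencing, and the mice used for that qRT-PCR are not named. Whether it is independent of these libraries is therefore not known.

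Gm1553, a gene among those of highest FPKM here, gave the 174 nt loop (chr10:82492146-82492319, minus strand, span equal to length) with 1, 1 and 1 reads across AQP5+/+ and 11, 6 and 6 across AQP5-/- libraries. All AQP5-/- libraries lay above all AQP5+/+ ones, with a log2 fold change of 2.85 (SE 1.04, edgeR adjusted p = 0.412). The ratio of scaled reads was 8.03 (exact 95% counting interval 2.43 to 41.8). With a term for the presence of Y-linked transcripts, added after the data were seen, the log2 fold change was 2.75 and no longer past the threshold. Its mRNA was listed at 0 in 5 libraries and at 96156 FPKM in AQP5+/+ replicate 3, so the host level cannot be set beside it.

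Glcci1, a gene first known as induced by glucocorticoids, gave a loop of 717 nt (chr6:8537817-8582790, plus strand) with 1, 0 and 0 reads across AQP5+/+ and 6, 6 and 4 across AQP5-/- libraries. Again the genotypes did not overlap (log2 fold change 3.67, SE 1.39, edgeR adjusted p = 0.417, ratio 16.8, interval 2.60 to 703). With the Y-linked term it was 5.49 and not past the threshold, and without AQP5+/+ replicate 1, which held the 1 wild-type read, it was 5.43 and past it. Its mRNA was at 3.16, 2.12 and 4.10 FPKM against 2.19, 1.88 and 0.970, with a log2 difference of -0.74 (SE 0.305, limma adjusted p = 0.431).

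Lrch1, a leucine-rich repeat and calponin homology domain protein, gave a loop of 852 nt (chr14:74807474-74835775, minus strand) with 0, 4 and 0 reads across AQP5+/+ and 3, 7 and 14 across AQP5-/- libraries. AQP5+/+ replicate 2 lay within the AQP5-/- range (log2 fold change 2.49, SE 0.97, edgeR adjusted p = 0.442, ratio 6.29, interval 2.16 to 24.9). With the Y-linked term the log2 fold change was 0.91 and the loop was no longer past the threshold. Leaving out AQP5+/+ replicate 1 (1.87) also took it below the threshold, as did leaving out AQP5+/+ replicate 3 (1.98) and AQP5-/- replicate 3 (1.86). Without AQP5+/+ replicate 2, which held all 4 wild-type reads, the value was 6.04.

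Nbeal1, a BEACH domain protein related to neurobeachin, gave a loop of 667 nt (chr1:60206334-60230685, plus strand) with 12, 11 and 0 reads across AQP5+/+ and 0, 1 and 0 across AQP5-/- libraries. The 2 high libraries were AQP5+/+ replicates 1 and 2, and AQP5+/+ replicate 3 had none (log2 fold change -3.99, SE 1.25, edgeR adjusted p = 0.334). Scaled reads were 22.0 times as many in AQP5+/+ libraries (interval 3.56 to 904). Its mRNA was at 9.97, 8.35 and 8.86 FPKM against 7.27, 11.2 and 9.51, and overlapped. It was the only unlisted circRNA still past the threshold with the Y-linked term (-4.66), and with DESeq2 it was not past it (-4.17). Without AQP5-/- replicate 2, which held the 1 read of that genotype, it was -5.91.

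Cacna1b, the pore subunit of the N-type calcium channel, gave a loop of 788 nt (chr2:24697275-24719101, minus strand) with 7, 1 and 5 reads across AQP5+/+ and 0, 0 and 0 across AQP5-/- libraries. No other unlisted circRNA was present in all 3 libraries of 1 genotype and absent from the other. The loop met the filter of reads in 3 or more libraries only through the genotype where it was high. Its call and its lack of overlap are thus partly fixed by that filter. Against a floor of 3 reads over the AQP5-/- group it was at least 4.14-fold lower there (edgeR log2 fold change -5.09, SE 1.9, adjusted p = 0.417). AQP5+/+ replicate 2 had 1 read, and with the Y-linked term the value was -3.25 and not past the threshold. Its mRNA was low, at 4.76, 2.73 and 1.81 FPKM against 3.15, 1.68 and 0.508, and overlapped.

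**Figure D5:**
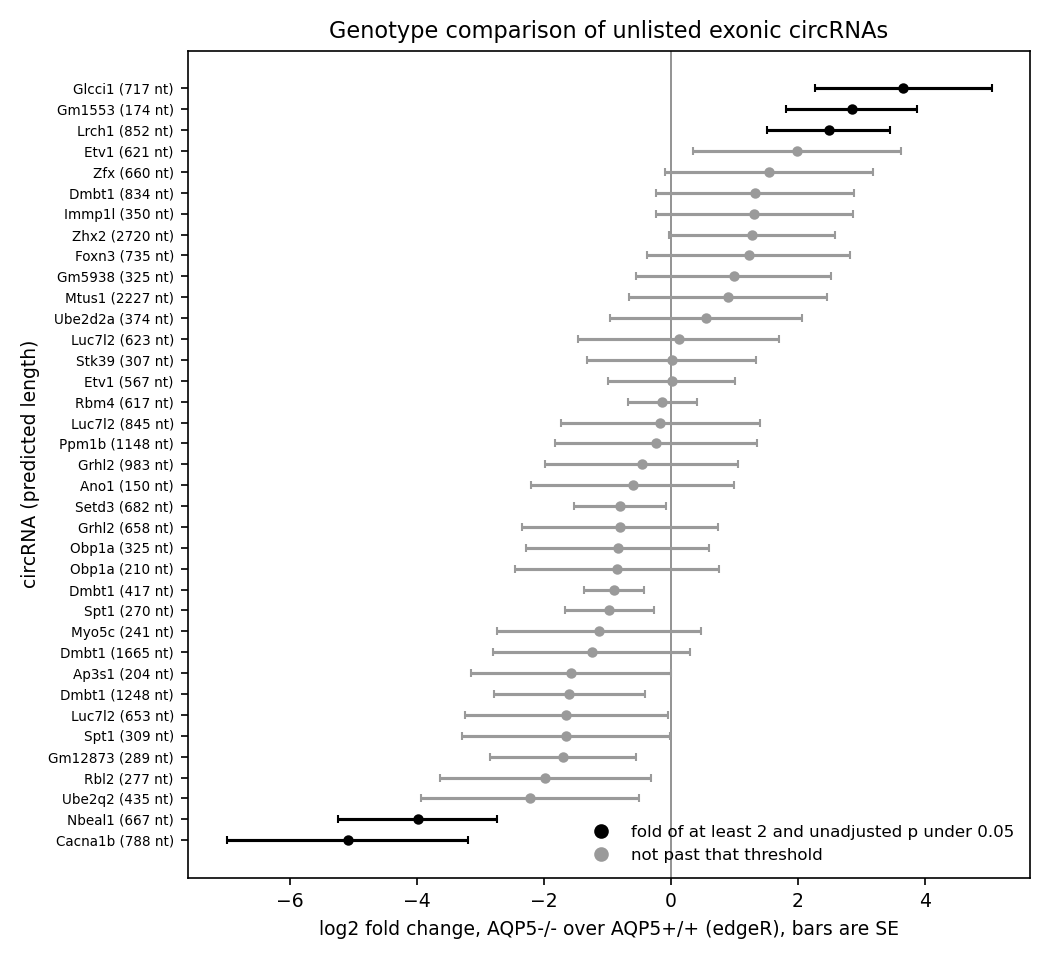
Log2 fold change of AQP5-/- over AQP5+/+ libraries (x axis, edgeR, bars are standard errors) for the 37 unlisted exonic circRNAs that could be tested. Black points passed a fold of at least 2 at an unadjusted p under 0.05, from -5.09 for Cacna1b to 3.67 for Glcci1, and none passed an adjusted p of 0.05.

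The abundant loops of Dmbt1 and Spt1 were not past the threshold. For the 417 nt Dmbt1 loop the log2 fold change was -0.89 (SE 0.474, edgeR adjusted p = 0.617), and it passed the unadjusted threshold without AQP5+/+ replicate 2 (-1.20) or AQP5-/- replicate 2 (-1.54), with DESeq2 size factors in edgeR (-1.01) and with circRNAs in at least 2 libraries tested (-1.01). With the Y-linked term it was -0.32. Dmbt1 mRNA was at 232, 114 and 271 FPKM in AQP5+/+ and 85.1, 132.7 and 76.2 in AQP5-/- libraries. From AQP5+/+ replicate 3 at the top to AQP5-/- replicate 3 at the bottom, the 6 libraries stood in the same order for the mRNA and for the raw reads of the loop. Scaled reads did not keep this order. AQP5+/+ replicate 1 and AQP5-/- replicate 2 had nearly equal raw reads at effective library sizes of 1730 and 1370. After scaling, AQP5-/- replicate 2 therefore stood above AQP5+/+ replicate 1 for the loop. For the 270 nt Spt1 loop the value was -0.97 (SE 0.701, edgeR adjusted p = 0.96), at -1.49 without AQP5+/+ replicate 2, where it passed, and at 1.13 with the Y-linked term. The Rbm4 loop stayed at -0.13 (SE 0.547, edgeR adjusted p = 0.996).

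Host mRNA was compared with limma on log2(FPKM + 0.5). By the same threshold 5 of 425 tested host genes (1.18%) changed, against 2.04% of the 11772 genes in the fit. In AQP5-/- libraries 3 rose (background 1.16%) and 2 fell (background 0.883%), and with each library centred on its median 5 rose and 0 fell. Dmbt1 fell by 1.02 on the log2 scale (SE 0.346, limma adjusted p = 0.431). Ttc6, a tetratricopeptide repeat protein gene, was at 6.85, 2.32 and 7.95 FPKM in AQP5+/+ and 2.22, 2.15 and 2.04 in AQP5-/- libraries. Slc27a2, a fatty acid transporter and acyl-CoA synthetase, was at 21.6, 766.7 and 18.0 FPKM against 712, 668.5 and 545.2, and 9530002B09Rik at 629, 1410 and 455 against 1503, 1376 and 1860. For all of Dmbt1, Ttc6, Slc27a2 and 9530002B09Rik, AQP5+/+ replicate 2 lay nearer to the AQP5-/- libraries than to the other AQP5+/+ ones. For Dmbt1 (114 FPKM) and 9530002B09Rik (1410 FPKM) it lay inside the range of the AQP5-/- libraries. With the Y-linked term 1 host gene was higher and 0 lower. Leaving out AQP5+/+ replicate 2 raised the counts to 6 and 11, and leaving out another library gave 1 to 3 higher and 0 to 5 lower. The fifth was Spt1, whose zeros are described above. On those zeros it was the host with an adjusted p under 0.05, against 0.017% of all genes, and the other 4 stood at 0.431. Over the 425 hosts the median log2 difference was -0.18, against -0.12 over all genes.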

How the data were processed

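Values are for 3 AQP5+/+ and 3 AQP5-/- lacrimal gland libraries, grouped by their labels. The circRNA table was deposited by the authors as a raw count of junction reads per library. Reads had been trimmed with cutadapt 1.9.3 and aligned with STAR 2.5.1b to mm10, and circRNAs identified with DCC. The authors' normalised circRNA values were not used. The FPKM table was deposited by the authors with 1 value per gene and library. Among the tools listed for it were HISAT2 2.0.4, Cuffdiff 2.2.1 and Cufflinks, in an order not given in the sources.

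Counts were tested with edgeR 4.0.16 (glmQLFit and glmQLFTest, TMM factors of 0.894 to 1.11) in R 4.3.3, keeping every circRNA detected in 3 or more of the 6 libraries. FPKM were tested with limma 3.58.1 (trend) as log2(FPKM + 0.5) at a mean of 0.5 FPKM or more. Both adjustments (Benjamini-Hochberg) covered every feature tested. Exact permutation tests used scipy 1.17.1. Against a group without reads, folds used a floor of 3 reads over the group, and ratios carry exact 95% counting intervals. PCR copies were not removed by molecular identifiers as far as the sources say, so intervals and floors cover counting error only. DESeq2 1.42.0, other filters, scalings and pseudocounts, the replicate block and each library left out were alternatives. The scripts were tested on simulated data.

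The members, gene lists and tests were chosen with earlier results of these data known. Named were the 10 circRNAs with most reads, those past the threshold, those in all 6 libraries or in all 3 of 1 genotype alone, the hosts with most unlisted circRNAs, the 2 longest and 2 shortest, and up to 4 per list by reads. The printed junction ends were those a promoter window covered. The Ltf, Ttc6, Slc27a2, 9530002B09Rik, Gm5938, Wfdc12, Mup4, Lyz2, Lrrc8d and marker values were named after they were seen.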

Additional observations from a re-analysis of the deposited data

How the results depend on the processing

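Of 236 recomputed values, 163 kept their direction and side of the threshold. Leaving out a library gave differences of 3.21 to 4.74 points for the unlisted share per library. Within libraries it gave 38.3 to 56.0 nt for length, -0.47 to -0.383 for reads per circRNA, 44.1 to 47.5 points for circles found in that library alone, 1.30 to 3.14 for host FPKM and -9.08 to -5.98 points for circles with another circRNA of their host. With 5 pairs left the exact test cannot go below 0.0625, so calls lost there say nothing. The length difference was 50.3 nt (exact p = 0.0625) with at least 2 reads per library and 2.32 nt by means, and reads per circRNA differed by -0.167 by medians. The host FPKM difference passed the threshold, before adjustment, with circBase alone as the listed set (3.49) and by means (1010 FPKM). It also passed without hosts listed at 0 (3.09), a setting that was not planned. The causes were not tested.

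Unlisted circRNAs lower in AQP5-/- libraries numbered 2 at first, 1 with DESeq2, 4 with reads in at least 2 libraries, 1 with the Y-linked term and 2 to 4 with a library left out, the 4 without AQP5+/+ replicate 2. Higher ones numbered 3 at first, 0 with the Y-linked term and 2 to 3 with a library left out. That term sets a lone AQP5+/+ library, replicate 2, against the knockouts and assumes it varies like the rest, so a lost call says little. The log2 fold change of the 567 nt Etv1 loop, 0.02, changed sign with DESeq2 size factors (-0.08), with reads in at least 2 libraries (-0.05), without a filter (-0.04), with the Y-linked term (-0.89) and over left-out libraries (-0.65 to 0.74), and that of the 270 nt Spt1 loop was 1.13 with the Y-linked term. The Gm12873 loop passed the threshold without AQP5-/- replicate 3 (-5.26).

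Host genes higher in AQP5-/- libraries numbered 3 at first, 1 without a filter, 5 with median centring, 1 with the Y-linked term and 1 to 6 with a library left out. Lower ones numbered 2, then 1 with log2(FPKM + 1), 0 without a filter, 0 with median centring, 0 with the Y-linked term and 0 to 11 with a library left out. The highest of both, 6 and 11, came without AQP5+/+ replicate 2. Median centring moved the median log2 difference of all genes from -0.12 to 0.01. Replicate numbers did not pair the libraries, since the deviations of same-numbered libraries correlated at -0.0658 to -0.0112 for circRNAs and -0.184 to -0.139 for mRNA. With the replicate block 3 unlisted circRNAs were higher and 2 lower, 3 host genes were higher and 2 lower, and the share difference was 3.86 points (exact p = 0.25, the smallest 3 pairs can give).

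The main test left out 484 of 521 unlisted circRNAs, which had reads in under 3 libraries. The libraries held 2032 to 2953 junction reads each, and whether deeper libraries would change these counts was not tested.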
